A study of Mus musculus with 2 samples.

Results

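This account covers 10 mouse genes of the MHC class II pathway: the chain genes H2-Aa, H2-Ab1, H2-Eb1 and H2-Eb2, the peptide loading factors H2-DMa, H2-DMb2, H2-Oa and H2-Ob, the invariant chain gene Cd74 and the transactivator gene Ciita. They were taken by name, as every non-control array probe whose transcript accession belongs to a listed gene. That gave 17 probes out of the 34565 probes that could be named as 23786 genes. The RNA came from bone marrow-derived dendritic cells (BMDCs) of C57BL/6J mice, in 2 groups: cells labelled EGR1-deficient and cells labelled wild type (WT). Both were labelled male, and both were grown from femoral marrow with 10 ng/ml of the cytokine GM-CSF and collected on day 6, per the labels' protocols. EGR1 is a transcription factor whose gene is switched on rapidly by many stimuli. How the Egr1 gene was inactivated, and how many animals each culture came from, are not given in the sources used here.

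There was 1 one-colour array per group, so no difference below has a replicate check and no p-value was computed. Per the file headers, slide and scan were shared by the arrays. The array of cells labelled EGR1-deficient had 59.8% of 59305 non-control spots well above background, and the WT array 55.2%. The scanner program called the mean net signal of the negative controls out of range on the array labelled EGR1-deficient (41.3). It called that signal in range on the WT array (38.7). The bearing of this flag on dim probes, such as those of H2-Ob and H2-Eb2, was not tested. Egr1 itself read 1212 in cells labelled EGR1-deficient and 379.7 in WT cells, which goes against the labels, but where its probe lies relative to the inactivated part is unknown. Xist, normally made in female cells, read 4559 in cells labelled EGR1-deficient and 3425 in WT cells, and 6 of 7 probes for Y-linked genes were well above background on neither, which goes against the male label. Every direction below therefore rests on the labels as given. The dendritic cell marker Itgax read 777 in cells labelled EGR1-deficient and 572 in WT cells, whereas Xcr1 and Clec9a, markers of the cross-presenting type, were not well above background on either. Batf3, a factor of that type named after its values were seen, read 310 in cells labelled EGR1-deficient and 263 in WT cells. Whether such cells were present was not tested.

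MHC class II molecules are surface heterodimers of an alpha and a beta chain that show peptides from endosomes to CD4 T cells. The invariant chain, encoded by Cd74, blocks the groove until proteases cut it down to the fragment CLIP. The heterodimer DM, made of H2-DMa and an H2-DMb chain, then exchanges CLIP for a peptide, and the heterodimer DO, made of H2-Oa and H2-Ob, inhibits DM. CIITA does not bind DNA itself but is recruited to the X and Y boxes of class II promoters by the RFX, CREB and NF-Y factors. Dendritic cells and B cells make class II constitutively, and DO is best known from B cells.

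The class II promoters are shown here because CIITA is recruited to these boxes. RefSeq promoter sequences of build GRCm38.p6, from 250 bases before to 50 after each annotated start, matched 7 of the 10 members by symbol, with 8 promoters in all. H2-Ab1, Cd74 and Ciita had none. The promoters of H2-DMa are not shown: they held no X1-like match, and their only Y box match was at −198 from the start. The windows below run from upstream of the X box to just past the Y box on the coding strand, with matches to an X1-box form (AAC, any 2 bases, ATG, any base, TG), TGACGTCA (the CRE palindrome of the X2 box) and ATTGG (the Y box, CCAAT on the other strand) in capitals. H2-DMb1, the neighbouring copy of H2-DMb2, is no member and is shown for comparison.
H2-Eb1: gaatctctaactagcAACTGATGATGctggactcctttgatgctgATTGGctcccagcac
H2-Eb2: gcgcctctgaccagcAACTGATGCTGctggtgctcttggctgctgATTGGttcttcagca
H2-Ob: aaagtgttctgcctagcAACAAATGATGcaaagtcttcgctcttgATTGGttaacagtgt
H2-DMb2: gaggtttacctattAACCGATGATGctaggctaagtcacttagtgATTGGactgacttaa
H2-DMb1: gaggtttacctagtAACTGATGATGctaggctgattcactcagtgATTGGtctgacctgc
H2-Oa: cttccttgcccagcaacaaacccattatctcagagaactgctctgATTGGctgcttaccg
H2-Aa: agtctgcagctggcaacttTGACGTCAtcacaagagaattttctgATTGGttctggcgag

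These windows lie at chr17:34305763-34305822 (H2-Eb1), chr17:34325530-34325589 (H2-Eb2), chr17:34238803-34238862 (H2-Ob), chr17:34145114-34145173 (H2-DMb2), chr17:34153085-34153144 (H2-DMb1) and chr17:34092291-34092350 (H2-Oa), all on the plus strand, and at chr17:34287857-34287916 on the minus strand (H2-Aa). The X1-like and Y box matches stood 30 bases apart, first base to first base, in H2-Eb1 and in H2-Eb2, 28 apart in H2-Ob and 31 in H2-DMb2 and in H2-DMb1. In H2-Aa the CRE palindrome began 26 bases before the Y box. CCAAT, searched on both strands, was in 7 of the 8 member promoters, against 37.4% of all 32851 promoters. The X1-like form, chosen after the sequences were seen and also searched on both strands, was in 4 member promoters (H2-Eb1, H2-Eb2, H2-Ob and H2-DMb2), against 0.566% of all promoters. Since the form was chosen from these sequences, this comparison is no test of enrichment.

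Another X1 form (AG, any 2 bases, AC, any base, GATG) overlapped that match in H2-Eb1 and H2-Eb2, was also found in H2-Oa at position −141 from the start, outside the window shown, and was in 0.968% of all promoters. TGACGTCA was in the H2-Aa promoter alone among the members and in 1.79% of all promoters. TGACGCA was in 0 of the 8 member promoters and in 2.12% of all. The EGR motif GCGNGGGCG was in 0 of the 8, against 5.55% of all promoters, and its form GCGTGGGCG was in 0 of the 8 and 0.612% of all. No match says only that these letters are not in these windows.

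**Figure D1:**
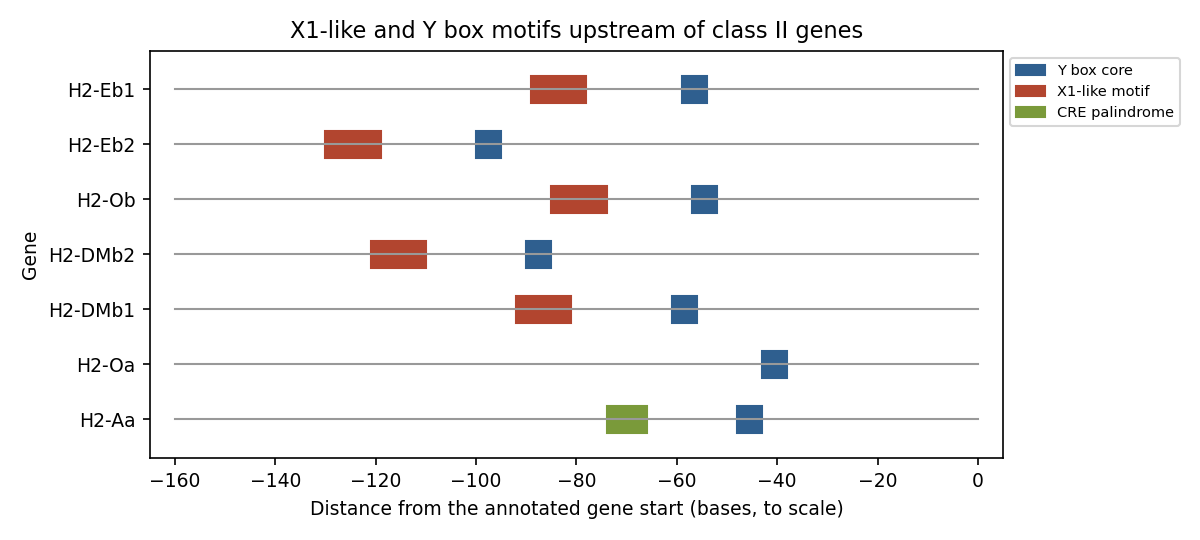
Each row is 1 gene and the horizontal axis is the distance in bases from its annotated start; blue boxes mark the Y box match in the windows shown, red boxes the X1-like match and the green box the CRE palindrome. The X1-like box stands 28 to 31 bases before the Y box in H2-Eb1, H2-Eb2, H2-Ob, H2-DMb2 and H2-DMb1; a further CCAAT match of H2-Eb1 and both promoters of H2-DMa are not drawn.

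Most class II pathway genes differed little between the arrays, and H2-Ob, H2-Eb2 and a dim second probe of H2-DMa stood furthest apart. Of the 10 genes, each by its probe of highest mean signal, 1 was 1.5-fold or more higher in cells labelled EGR1-deficient, against a background of 3.51% of the 13725 genes above background on both arrays, and 0 were that much lower, against 4.17%. At 2-fold the counts were 0 higher and 0 lower, with a background of 0.707% and 1.01%. Differences are log2 intensities, each scaled to its array's 75th percentile, as EGR1-deficient minus WT. The median over the 10 genes was 0.04, against −0.05 over all 13725, and 5 of the 10 were above 0, against a background of 42.6%. Without H2-Ob the median of the other 9 was 0.00. These are cultures of mixed cells, and fewer cells of a type and less RNA per cell cannot be told apart.

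The split of all genes depended on the scaling. The share of all genes 1.5-fold higher and lower was 0.495% and 0.947% after normexp background correction, 2.78% and 4.91% after quantile normalization, 5.08% and 1.87% in the authors' series table and 4.0% and 2.42% when that table was put on the percentile scale. Technical error came from 3 sources. Repeated spots of 1 probe gave a median SD of 0.09 for a difference (268 probes), but 0.22 for the 9 of these with a signal under 200. Different probes of 1 gene, over 3571 genes with 2 probes, differed with an SD whose median was 0.17 and whose root mean square was 0.31. The scanner program's own error for a difference was about 0.20 for bright spots, and it is the error given below.

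**Figure D2:**
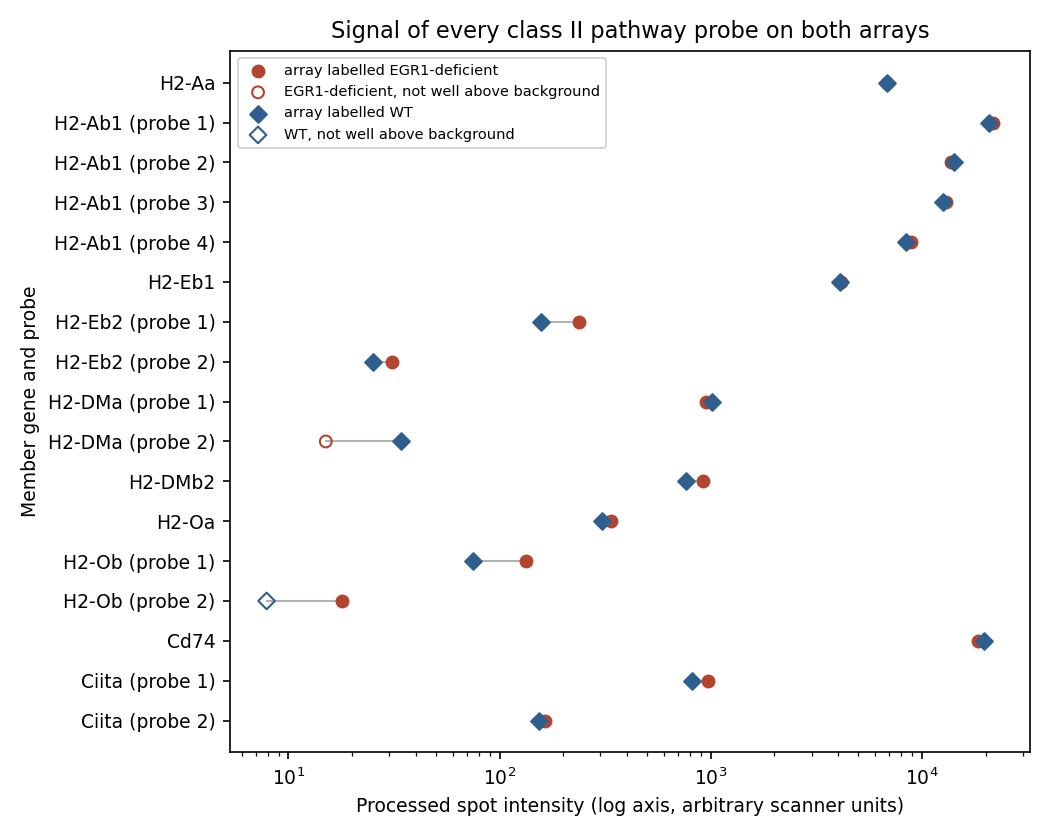
The horizontal axis is the processed spot intensity on a log scale and each row is 1 of the 17 member probes, with circles for the array labelled EGR1-deficient and diamonds for the WT array; open symbols were not well above background. The circle and diamond nearly coincide for H2-Aa, H2-Ab1, H2-Eb1 and Cd74, and stand apart for H2-Ob, for probe 1 of H2-Eb2 and for probe 2 of H2-DMa.

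The classical chains differed little. H2-Aa, the alpha chain of the I-A molecule, read 6804 ± 680 in cells labelled EGR1-deficient and 6819 ± 682 in WT cells (± the scanner program's error, 1 SD), a difference of −0.07 ± 0.20. H2-Ab1, its beta chain, had 4 probes. The brightest probe of H2-Ab1 read 21791 in cells labelled EGR1-deficient and 20863 in WT cells, and the other probes read 13737 against 14107, 13054 against 12628 and 8911 against 8442. The mean difference over the 4 H2-Ab1 probes was −0.03 ± 0.05 (SD over probes of the same 2 RNA samples, which are not replicates). The 2 arrays thus overlap for H2-Ab1 within the error of single spots.

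H2-Eb1, the beta chain of the I-E molecule, read 4155 in cells labelled EGR1-deficient and 4097 in WT cells, a difference of −0.05 ± 0.20. The gene of its alpha chain, H2-Ea, is annotated as a transcribed pseudogene in this strain's reference and was not analysed here. The sign of these 3 genes' differences depended on the scaling: H2-Aa lay between −0.07 and 0.08, H2-Eb1 between −0.05 and 0.09 and the brightest H2-Ab1 probe between −0.02 and 0.11. Among 596 probes with a mean signal within 0.5 log2 units of that of H2-Aa, the 5th to 95th percentiles of the differences ran from −0.34 to 0.23, and H2-Aa lay inside.

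H2-Eb2, a second E-type beta chain gene, was higher in both of its probes. Its brighter probe read 238 ± 24.0 in cells labelled EGR1-deficient and 157 ± 16.1 in WT cells, a difference of 0.54 ± 0.21 or 1.45-fold. Its dim probe read 30.9 ± 4.32 in cells labelled EGR1-deficient and 25.2 ± 4.39 in WT cells, a difference of 0.23 ± 0.32, within the scanner error. The brighter H2-Eb2 probe stood just short of 1.5-fold and just above the 5th to 95th percentiles of 4493 probes of like signal, −0.46 to 0.47. It passed 1.5-fold in the authors' series table, at 0.65, and read 0.31 after normexp.

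**Figure D3:**
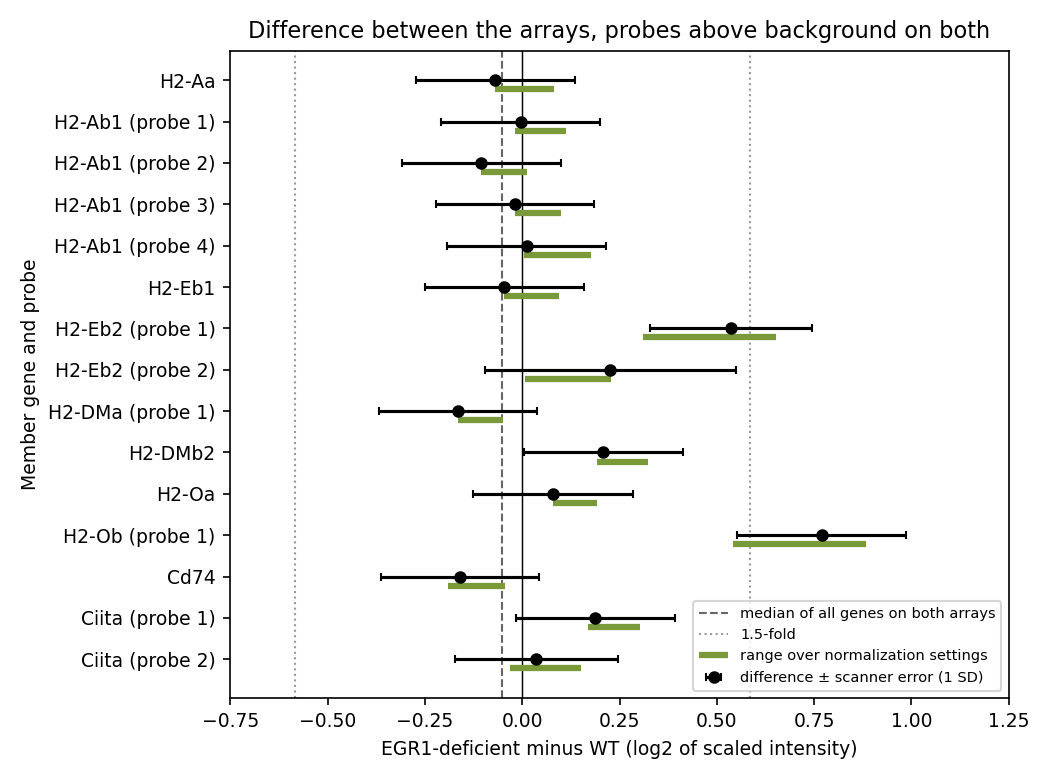
The horizontal axis is the difference in log2 scaled intensity, EGR1-deficient minus WT, for the 15 member probes above background on both arrays; points carry the scanner program's error (1 SD), green bars span the 7 settings (the main scaling and 6 normalization and source alternatives; 5 settings for H2-Eb2 probe 2), the dashed line is the median of all genes and dotted lines mark 1.5-fold. Probe 1 of H2-Ob is the 1 point beyond the right dotted line, and the error bars of all other probes but H2-Eb2 probe 1 and H2-DMb2 reach 0.

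The DM genes differed by about the scanner error. H2-DMa, the DM alpha chain, read 950 ± 95.1 in cells labelled EGR1-deficient and 1017 ± 102 in WT cells, a difference of −0.17 ± 0.20 that was below 0 under all 7 settings, from −0.17 to −0.05. H2-DMb2, a DM beta chain, read 921 ± 92.1 in cells labelled EGR1-deficient and 761 ± 76.2 in WT cells, a difference of 0.21 ± 0.20, with a range of 0.19 to 0.32. Both lay inside the 5th to 95th percentiles of probes of like signal. H2-DMb1, the neighbouring copy, read 776 in cells labelled EGR1-deficient and 831 in WT cells (−0.17). The 2 DM beta copies are close in sequence, and how far each probe also binds the other's RNA was not tested.

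A second H2-DMa probe, designed to a predicted transcript, was lower by more than the first. It read 15.04 ± 3.73 in cells labelled EGR1-deficient, where it was not well above background, and 33.96 ± 5.27 in WT cells. Its at-least fold was 2.36 lower in cells labelled EGR1-deficient. An at-least fold compares the bright reading with the higher of the dim reading and the lowest signal called well above background on that array (13.3 in cells labelled EGR1-deficient and 16.3 on WT). For this probe the dim reading was above that lowest signal. The 2.36 is therefore the scaled ratio of the 2 readings, and the true fold may be smaller. This probe is near the bottom of the measured range. Of the 3438 probes of like signal, 10.2% were 1.5-fold or more lower. Those probes were all well above background on both arrays, as this one was not, and no share at 2.36-fold was taken.

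Among member probes above background on both arrays, a DO gene had the widest difference. H2-Ob, the DO beta chain, read 133 ± 13.6 in cells labelled EGR1-deficient and 74.6 ± 8.20 in WT cells, a difference of 0.77 ± 0.22 or 1.71-fold. A second H2-Ob probe read 18.0 in cells labelled EGR1-deficient and 7.89 in WT cells, where it was not well above background, which gives at least 1.05-fold higher. The brighter probe was above 0 under all 7 settings, from 0.54 after normexp, which is under 1.5-fold, to 0.88 in the series table. The 5th to 95th percentiles of 5306 probes of like signal ran from −0.53 to 0.56, and 4.58% of those probes were 1.5-fold or more higher.

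H2-Oa, the DO alpha chain, did not show a difference of that size. It read 338 ± 33.9 in cells labelled EGR1-deficient and 305 ± 30.8 in WT cells, a difference of 0.08 ± 0.21 with a range of 0.08 to 0.19. The gap between H2-Ob and H2-Oa has no replicate and was not tested. Since DO is best known from B cells, the 10 B cell markers listed were read beside it. Of these, 7 were above background on both arrays, with a median of −0.58, 2 above 0 and 5 below. The series table gave 3 above 0 and 3 below, and the median ran from −0.69 to −0.15 over the 7 settings. Of the 7, 3 were more than 1.5-fold lower, against 4.17% of all genes. They were dim: Ebf1 read 15.7 in cells labelled EGR1-deficient and 33.3 in WT cells (−1.15), Cd79b 20.9 against 42.4 (−1.09) and Blnk 64.3 against 111 (−0.85), while Pax5 (0.47, another probe 0.28) and Ms4a1 (0.45) were above 0. Their summed signal was 2640 in cells labelled EGR1-deficient and 2466 in WT cells, most of it from Cd22 (1810 in cells labelled EGR1-deficient and 1756 in WT cells, −0.02, another probe −0.63, named after its values were seen), and Fcrla and Vpreb3 were well above background on neither array. The B cell markers' part in the H2-Ob difference was not tested.

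Cd74 and Ciita, which serve the whole pathway, also differed by less than 1.5-fold. Cd74, on chromosome 18, read 18390 ± 1840 in cells labelled EGR1-deficient and 19617 ± 1960 in WT cells, a difference of −0.16 ± 0.20, below 0 under all 7 settings. Ciita, on chromosome 16, had 2 probes to the same transcript. The brighter Ciita probe read 970 ± 97.0 in cells labelled EGR1-deficient and 813 ± 81.4 in WT cells, a difference of 0.19 ± 0.20. The dimmer Ciita probe read 164 ± 16.7 in cells labelled EGR1-deficient and 153 ± 15.7 in WT cells, a difference of 0.04 ± 0.21 that turned to −0.03 after normexp. Both genes lay inside the 5th to 95th percentiles of probes of like signal.

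**Figure D4:**
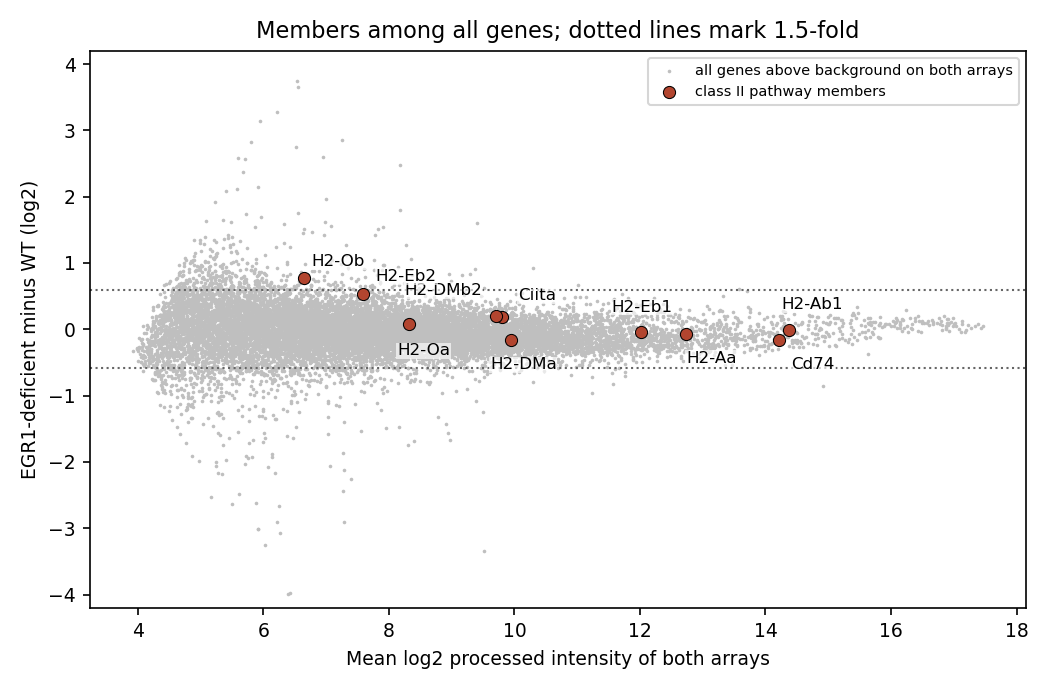
The horizontal axis is the mean log2 processed intensity of both arrays and the vertical axis the log2 difference, EGR1-deficient minus WT; grey points are the 13725 genes above background on both arrays, red points the 10 members, and dotted lines mark 1.5-fold. H2-Ob, at 0.77, is the 1 member beyond a dotted line, and grey points spread more widely toward the dim side, where H2-Ob and H2-Eb2 lie.

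The 8 members on chromosome 17 stand among other genes of the class II region. In chromosomal order from H2-Oa to H2-Ea the reference lists 16 genes. The 6 measured genes there that are not members were all below 0, against 57.4% of all genes, with a median of −0.17, against −0.05. They were Psmb8 (−0.49) and Psmb9 (−0.24), subunits of the immunoproteasome, the peptide transporter genes Tap1 (−0.18) and Tap2 (−0.07), the chromatin reader Brd2 (−0.11) and H2-DMb1 (−0.17). H2-Ob lies between Tap2 and H2-Ab1, whose differences were −0.07 and 0.00. Of these 6 neighbours, 4 were below 0 after quantile normalization, after loess and in the series table on its own scale. No share below 0 among genes of like signal was taken.

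**Figure D5:**
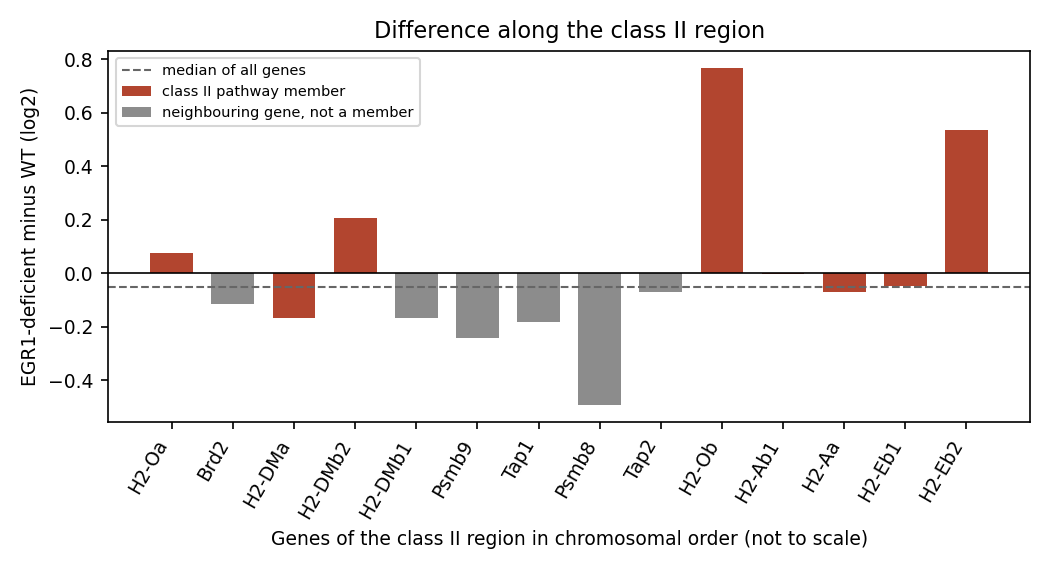
Genes above background on both arrays stand in chromosomal order from H2-Oa to H2-Eb2, not to scale, and bars give the log2 difference, EGR1-deficient minus WT, in red for members and grey for other genes. H2-Ob (0.77) and H2-Eb2 (0.54) are the tallest bars above 0 and Psmb8 (−0.49) the deepest below 0.

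Factors of class II transcription, both those that bind the promoters and cofactors, were near even. Of 14 genes in this list 0 were 1.5-fold higher, against 3.51% of all genes, and 1 lower, against 4.17%. The median was 0.02 and ran from −0.01 after quantile normalization to 0.14 in the series table on its own scale. Creb1, which binds the X2 box, read 540 in cells labelled EGR1-deficient and 885 in WT cells (−0.78), but another of its probes gave 0.19. The 3 RFX subunit genes, named after their values were seen, differed by 0.02 (Rfx5), 0.17 (Rfxap) and −0.20 (Rfxank). Among 14 inducers and repressors of Ciita, 0 passed 1.5-fold and the median was −0.12. The furthest were Jak1, a kinase of the interferon gamma receptor (−0.56), and Socs1, its feedback inhibitor (−0.38).

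Of 10 genes of peptide generation and cutting of the invariant chain 0 passed 1.5-fold, against 3.51% of all genes higher and 4.17% lower. With 10 genes, a count of 0 is near those shares. The list mixes enzymes with Cst3, which encodes cystatin C, an inhibitor of cathepsins (0.11, another probe −0.26). Their median was −0.21, against −0.05 over all genes, and 8 were below 0, against 57.4% of all genes. The count below 0 was 8 under all 7 settings, and the median ran from −0.23 to −0.10. No share below 0 among genes of like signal was taken, here or for the macrophage markers below. The furthest were Ctsl, encoding cathepsin L (520 in cells labelled EGR1-deficient and 694 in WT cells, −0.48, another probe −0.32), and Ifi30, encoding a lysosomal thiol reductase (1704 against 2057, −0.34). Of 10 genes of class II turnover 0 passed 1.5-fold, against the same shares of all genes. Their median was −0.07 and ran from −0.08 to 0.04 over the 7 settings. Marchf1, whose ubiquitin ligase removes class II from the surface, read 51817 in cells labelled EGR1-deficient and 39187 in WT cells (0.34), and Cd63 differed by −0.18. The Marchf1 probe read brighter than every member probe, and whether it also binds other RNA was not tested. Of 5 measured partners of CD74 0 passed 1.5-fold, against the same shares. Their median was −0.10 and ran from −0.10 to 0.02 over the 7 settings. The furthest of them were the cytokine genes Ddt (−0.30) and Mif (−0.24).

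Cytokines and receptors that regulate class II, and markers of other cells that make it, were read in the same way. Of 7 measured genes for class II regulating cytokines and receptors 0 passed 1.5-fold, against 3.51% of all genes higher and 4.17% lower. Their median was −0.22, against −0.05 over all genes, and ran from −0.22 to −0.075 over the 7 settings. The furthest were Il4ra at 0.36 (another probe −0.34) and Tgfbr2 at −0.27. Il10, encoding a cytokine that lowers surface class II, was above background in cells labelled EGR1-deficient alone and at least 1.30-fold higher. It read 22.2 there and 9.91 in WT cells, near the bottom of the measured range. Of 12 dendritic maturation genes 1 was 1.5-fold higher, against 3.51% of all genes, and the median was 0.15, with 7 above 0 and 5 below. The gene past 1.5-fold was Tnfsf4 (0.74), which was dim, at 40.4 in cells labelled EGR1-deficient and 23.0 in WT cells. Brighter genes below 0, named after their values were seen, included Cd86 (−0.41, another probe −0.28) and Ccl17 (−0.33). Conventional dendritic markers had a median of 0.03 over 8 genes, 4 above 0 and 4 below, and the furthest were Flt3 at 0.50 and Itgax at 0.37.

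Of the 10 macrophage markers all were below 0, against 57.4% of all genes, with a median of −0.38, and C1qc, a complement subunit gene (2838 in cells labelled EGR1-deficient and 4222 in WT cells, −0.64), was past 1.5-fold. Their summed signal was 28926 in cells labelled EGR1-deficient and 36456 in WT cells. In the series table, on either scale, 9 of the 10 were below 0. Their part in the class II values was not tested.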

How the data were processed

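RNA of 2 BMDC cultures was measured on one-colour Agilent arrays, 1 per group. The authors deposited scanner files with spot intensity on a linear scale. Per the file headers these came from Agilent Feature Extraction 12.1.0.3 with background subtraction and detrending, and per the submitters' processing notes from version 11.5.1.1. The grid names build mm9. The scanner program's call of a spot well above background, and its error, were used as deposited. The authors' series table holds the processed intensity times 6.18 (EGR1-deficient) and 5.97 (WT), with medians of 1205 (EGR1-deficient) and 1114 (WT) and no centring; where these factors come from is unknown.

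Each array's 75th percentile (191.6 for EGR1-deficient, 183.0 for WT) was subtracted from processed intensity on the log2 scale. Outlier spots (77 on EGR1-deficient, 79 on WT) were left out, and repeated spots averaged. Probes were named by accession through a RefSeq table of GRCm38.p6, used for names and gene order. The brightest probe on average stood for its gene. Quantile, loess (span 0.3) and normexp (offset 50, on the median signal, since no mean signal column was at hand) were run in limma 3.58.1 under R 4.3.3; the rest in Python 3.11.15. The counting step was tested on simulated data. All 10 members are named with every probe, with Egr1 and H2-DMb1; of each list every gene past 1.5-fold, otherwise the 2 furthest. Members and lists were chosen with earlier results of these data known. Array number limits the precision. 1 B cell marker is not reported here.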

Additional observations from a re-analysis of the deposited data

How the results depend on the processing

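The member median was 0.04 and ran over the alternatives from 0.02 with the mean over a gene's probes to 0.15 in the authors' series table. The count of members 1.5-fold or more higher was 1. It was 0 after normexp, chosen after seeing the data, where H2-Ob read 0.54, and 2 in the series table and also 2 when that table was put on the percentile scale (likewise added later), where H2-Eb2 joined H2-Ob. The count of members lower was 0, and 1 with the mean over a gene's probes, since the dim H2-DMa probe then enters. Of 15 member probes 8 were above 0, against 13 after quantile normalization and 13 after loess, where the H2-Aa, H2-Ab1 and H2-Eb1 probes were all above 0. Of the single probe differences under the alternatives 84 moved by less than 0.165, the median of the SD that different probes for one gene showed, and 4 by more: an H2-Ob probe (0.54) and 2 H2-Eb2 probes (0.31 and 0.0059) after normexp, and an H2-Ab1 probe (0.18) after quantile normalization. The series table's own scale moved the median of all genes to 0.06, from −0.05. The stricter filter removed no gene. No paired analysis was possible because each group has 1 array. Signal over background limits H2-Ob, H2-Eb2 and the second H2-DMa probe; the cause of each change was not tested unless stated.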

Other observations

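Markers of further cells that could be present in these cultures were also read. Of 5 T cell markers, Cd4, which some dendritic cells also carry and whose protein binds class II, read 932 in cells labelled EGR1-deficient and 576 in WT cells (0.63, another probe 0.25). Cd3g was above background in cells labelled EGR1-deficient alone, at 39.1 against 4.56 in WT cells (at least 2.29-fold higher). Cd3d was above background in WT cells alone, at 22.0 against 12.9 in cells labelled EGR1-deficient (at least 1.73-fold lower in the latter). These readings were dim, and Cd8a was above background on neither array. The 5 plasmacytoid dendritic cell markers had a median of −0.05, with Siglech at 0.37 and Tcf4 at −0.28 (another probe −0.43). The sign of the plasmacytoid median depended on the setting. It was also −0.05 when scaled to the median of spots above background on both arrays. Under every other alternative it was above 0, from 0.01 in the series table on the percentile scale to 0.10 after quantile normalization. The 6 neutrophil markers had a median of −0.11, with Ly6g at −0.30 and S100a9 at 0.17. The neutrophil median ran from −0.12 after normexp to 0.003 in the series table on its own scale.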
